A study of Mus musculus with 12 samples.

Results

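Collagens other than the type IV chains were followed across mouse glomeruli and primary podocyte cultures. The members were all genes with a symbol made of Col, a number, a and a number, without Col4a1 to Col4a6, which gave 38 genes. A probe was matched for 36 of them, Col12a1 and Col6a3 having none, and 28 passed the filter on dim probes and were tested among 15215 genes. The other 8 (Col13a1, Col17a1, Col19a1, Col24a1, Col28a1, Col6a5, Col6a6 and Col9a3) were not well above background on at least 2 arrays. The choice used gene symbols and no measured value.

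Total RNA was hybridised to 12 one-colour arrays, 1 per sample, in 6 groups of 2. The tissue groups were glomeruli, the filtering units of the kidney, of tamoxifen-treated mice and of control mice whose agent is labelled none. Treated mice were 8 weeks old at the time of 3 daily injections, and their glomeruli were isolated on day 7. Primary podocytes, grown out of glomeruli isolated from adult mice, were kept with tamoxifen for 4 or 7 days or were mock-treated for the same times. All groups, the controls included, carried an inducible Cre and floxed Foxc1, and the second floxed gene is numbered differently on each sample, so the series title, which names Foxc2, was followed. The labels do not give the promoter of the Cre, and treated samples met both the drug and any recombination it set off. The glomerular labels number separate mice, whereas those of the cultures do not say whether numbered samples were separate cultures, so their spread, which enters every p-value, may be technical.

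Between 57.9% and 63.4% of spots on each array were well above background, 0 were saturated, and the correlation of replicate arrays, taken across genes, was 0.983 to 0.99. Foxc2 read -1.12 and -0.19 in treated glomeruli, against 2.10 and 2.24 in control glomeruli (difference -2.82, SE 0.51, adjusted p = 0.0367 by limma). Foxc1 read 0.92 and 1.09 in treated glomeruli, against 2.92 and 2.80 in control glomeruli, a difference of -1.86 (SE 1.69, adjusted p = 0.627) that did not pass. That SE pools the spread of all 6 groups. The standard deviation of Foxc1 was 0.12 in treated and 0.08 in control glomeruli, against 2.86 and 3.49 in tamoxifen cultures at days 4 and 7. In cultures Foxc2 read -7.11 and -5.42 with tamoxifen at day 4, against 1.76 and 1.45 in mock cultures, and -7.80 and -7.37 with tamoxifen at day 7, against 1.38 and 1.42 in mock cultures. Over both days Foxc2 was at least 145-fold lower with tamoxifen (adjusted p = 7.91e-05), and Foxc1, at -5.78, -1.74, -8.20 and -3.26 in tamoxifen cultures and 3.09, 4.21, 2.62 and 4.33 in mock cultures, differed by -8.31 (SE 1.20, adjusted p = 0.0104), with tamoxifen number 1 not well above background on either day. All 13 podocyte markers were well above background on all 8 culture arrays, though 11 of them were lower in mock cultures than in control glomeruli. With 2 samples against 2, the smallest two-sided exact permutation p is 0.333, so adjusted p-values are those of limma's fit across all 15215 genes. The number of arrays limits the precision.

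Collagens are secreted or membrane-bound proteins in which chains are wound into a helix of repeated glycine triplets. Fibrillar collagens build the cables of interstitial matrix, the fibril-associated FACIT collagens coat those cables, and collagen VI forms beaded microfilaments around cells. Anchoring fibrils, network-forming collagens, the heparan sulfate-bearing or chondroitin sulfate-bearing multiplexins and the transmembrane collagens act nearer to basement membranes and cell surfaces. In a healthy glomerulus the main collagen is type IV of the basement membrane, and fibrillar collagen is known from scarred glomeruli and from mesenchymal cells in culture. Chains are hydroxylated and folded in the endoplasmic reticulum, trimmed outside the cell and cross-linked by lysyl oxidases.

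Start-site sequences are shown for the collagens on which the comparisons turn: Col7a1, Col18a1 and Col23a1, which changed with tamoxifen in cultures, and Col1a2 and Col3a1, fibrillar chains that were higher in cultures than in glomeruli. RefSeq promoters of assembly GRCm38.p6 were found for 30 of the 38 members (33 promoters), each from 250 bases before to 50 bases after the start site. Col18a1 has more than 1, and both of its windows are given. Capitals mark every match, on either strand, to the TATA box TATAAA, the CCAAT box CCAAT, the GC box GGGCGG, the forkhead motif TGTTTAC or the AP-1 motif TGANTCA, none of which overlapped another in these windows.
Col7a1, chr9:108953336-108953635, plus strand, 58.7% G and C: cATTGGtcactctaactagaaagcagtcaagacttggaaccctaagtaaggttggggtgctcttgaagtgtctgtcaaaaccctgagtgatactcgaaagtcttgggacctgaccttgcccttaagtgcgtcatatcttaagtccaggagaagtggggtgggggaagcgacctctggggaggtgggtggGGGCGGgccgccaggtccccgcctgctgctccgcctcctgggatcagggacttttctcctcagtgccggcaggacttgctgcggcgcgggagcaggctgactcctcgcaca
Col18a1, chr10:77166481-77166780, minus strand, 63.3% G and C: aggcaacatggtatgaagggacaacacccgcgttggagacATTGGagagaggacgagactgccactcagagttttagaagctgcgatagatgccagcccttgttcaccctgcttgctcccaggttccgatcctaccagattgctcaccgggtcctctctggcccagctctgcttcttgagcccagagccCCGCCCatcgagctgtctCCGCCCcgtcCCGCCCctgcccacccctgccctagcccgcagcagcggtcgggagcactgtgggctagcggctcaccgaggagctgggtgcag
Col18a1, chr10:77113656-77113955, minus strand, 59.7% G and C: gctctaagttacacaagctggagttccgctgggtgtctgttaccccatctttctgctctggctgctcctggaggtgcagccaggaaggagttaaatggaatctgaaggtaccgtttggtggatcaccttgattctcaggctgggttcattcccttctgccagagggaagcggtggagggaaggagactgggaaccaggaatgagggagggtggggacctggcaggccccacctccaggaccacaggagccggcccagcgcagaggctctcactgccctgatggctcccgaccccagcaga
Col23a1, chr11:51289670-51289969, plus strand, 67.7% G and C: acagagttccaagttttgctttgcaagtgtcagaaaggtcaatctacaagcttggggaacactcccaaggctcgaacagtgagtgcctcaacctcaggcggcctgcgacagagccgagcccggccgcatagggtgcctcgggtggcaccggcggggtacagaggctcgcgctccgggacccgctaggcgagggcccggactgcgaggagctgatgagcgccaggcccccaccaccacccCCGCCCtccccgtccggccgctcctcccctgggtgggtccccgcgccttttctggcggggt
Col1a2, chr6:4505368-4505667, plus strand, 61% G and C: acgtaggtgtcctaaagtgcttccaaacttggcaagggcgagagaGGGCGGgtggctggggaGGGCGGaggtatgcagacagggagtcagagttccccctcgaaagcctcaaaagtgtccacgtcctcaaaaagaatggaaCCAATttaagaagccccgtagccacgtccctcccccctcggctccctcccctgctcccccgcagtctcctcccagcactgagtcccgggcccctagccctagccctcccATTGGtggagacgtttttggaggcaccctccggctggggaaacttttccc
Col3a1, chr1:45311288-45311587, plus strand, 37.7% G and C: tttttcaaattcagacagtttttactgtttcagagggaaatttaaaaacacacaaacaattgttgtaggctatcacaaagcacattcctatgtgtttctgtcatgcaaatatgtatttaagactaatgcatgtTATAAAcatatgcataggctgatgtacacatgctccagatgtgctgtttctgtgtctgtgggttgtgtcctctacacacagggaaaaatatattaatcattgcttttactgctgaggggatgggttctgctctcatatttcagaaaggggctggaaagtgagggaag
Col7a1 and Col23a1 each held a GC box, that of Col7a1 with a CCAAT box at the far end, and the upstream Col18a1 window held 3 of them with a CCAAT box, while the other Col18a1 window held no match to these letters. The Col3a1 window held a TATA box match at -117 and the Col1a2 window CCAAT boxes at -109 and 1 with GC boxes at -205 and -188, counted from the start site. Among the 33 collagen promoters the GC box was present in 19 (57.6%, against 35.7% of all 32851 promoters), the CCAAT box in 10 (30.3% against 37.4%) and the TATA box in 5 (15.2% against 13.6%). The forkhead motif was found in 1 (3.03% against 3.65%), that of Col6a1 at -211, and the AP-1 motif also in 1 (3.03% against 7.81%). These matches describe letters in the window and no binding.

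Values below are log2 levels relative to the array's 75th percentile of signal, so 0 is the level of that percentile, and levels are compared only within a probe. By any of its probes a collagen was well above background in both sorts of sample for 21 of the 36 matched members, only in cultures for 6, only in glomeruli for 4 and nowhere for 5. Col13a1, Col17a1 of hemidesmosomes, Col19a1, Col24a1 and Col28a1 were the 5 that read above background nowhere. Col15a1, Col27a1, Col6a5 and Col9a3 read above it only in glomeruli, the last pair on 1 array each. Col10a1, Col11a1, Col22a1, Col6a4, Col6a6 and Col9a1 did so only in cultures. There were 14 members well above background on all 12 arrays.

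**Figure D1:**
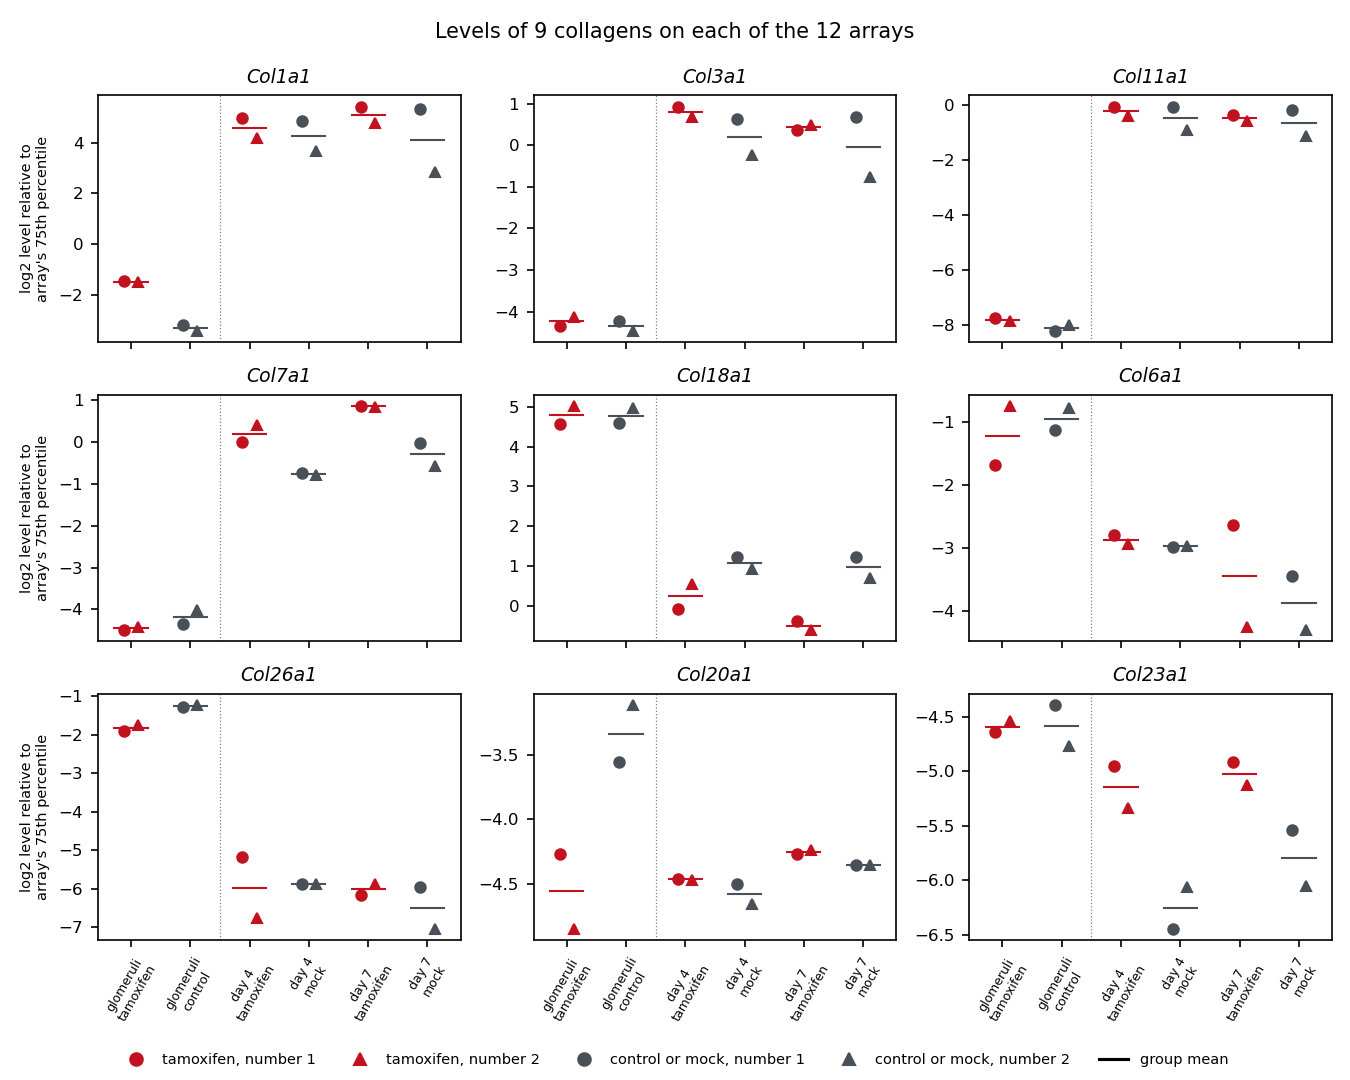
Log2 levels of 9 collagens (y axis, relative to the array's 75th percentile) on each of the 12 arrays (x axis, 6 groups of 2; circles are number 1, triangles number 2, bars the group mean, red the tamoxifen groups). Col1a1, Col3a1, Col11a1 and Col7a1 sat higher on all 8 culture arrays than on all 4 glomerular arrays, and Col18a1, Col6a1, Col26a1 and Col23a1 sat lower. Col11a1 in glomeruli and Col23a1 and Col26a1 in mock cultures were not well above background. With tamoxifen, Col26a1 was well above background on 1 culture array, at day 4.

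The widest differences among the collagens lay between mock cultures and control glomeruli. Of the 28 tested, 13 were higher in mock cultures and 9 were lower at an adjusted p under 0.05 in limma's fit, 22 in all. Col9a1 and Col10a1 among the 13, and Col8a2 and Col27a1 among the 9, are counted here with limits given below. Of all genes 63.7% passed in this comparison, 37.8% higher and 25.9% lower, so many calls are usual here and the sizes and the classes carry the description. The median collagen difference was 0.75, against 0.18 over all genes. Of 10 fibrillar chains 7 were higher and 1 lower, of 6 FACIT chains 3 were higher and 1 lower, and 2 of 3 beaded-filament chains and both multiplexins were lower. Cultures and glomeruli were hybridised on different slides scanned on different days, so tissue, slide and scan day cannot be told apart.

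Col1a1 and Col1a2 encode the chains of type I collagen, the most abundant collagen of scar and connective tissue. Col1a1 read 4.87, 3.66, 5.34 and 2.84 in mock cultures, against -3.18 and -3.40 in control glomeruli. That is a difference of 7.47 (SE 0.65, n = 4 against 2, adjusted p = 3.46e-05), or 177-fold. Every culture value was far above both glomerular values, even though culture numbers 1 and 2 lay apart by 1.21 at day 4 and 2.50 at day 7. Col1a2 read 6.78, 6.82, 6.71 and 5.97 in mock cultures, against 3.97 and 5.08 in control glomeruli, a difference of 2.05 (SE 0.35, adjusted p = 0.00123). Both chains of type I were therefore higher in cultures, by sizes that differ between the chains.

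Col3a1, the fibrillar chain of type III that runs with type I in soft tissue, read 0.62, -0.24, 0.67 and -0.75 in mock cultures, against -4.23 and -4.45 in control glomeruli. Its difference was 4.42 (SE 0.38, adjusted p = 3.22e-05), and the groups did not overlap. The type V chains start and thin collagen fibrils. Col5a1 read 2.51, 2.47, 2.45 and 1.88 in mock cultures, against -1.32 and -3.22 in control glomeruli (difference 4.60, SE 0.47, adjusted p = 8.24e-05). Col5a2 read -0.61, -1.05, -0.23 and -1.01 in mock cultures, against -3.08 and -3.99 in control glomeruli (difference 2.81, SE 0.32, adjusted p = 0.000141). All 3 type V chains were higher, Col5a3 by 3.62 (SE 0.68, adjusted p = 0.00208) with only 1 of 2 control glomerular arrays well above background. Col3a1 and Col5a2 are neighbours on the genome with no protein-coding gene between them.

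Col11a1, a fibril-starting chain best known from cartilage, was well above background on every culture array and on no glomerular array. It read -0.05, -0.90, -0.17 and -1.11 in mock cultures, against -8.21 and -8.00 in control glomeruli. Where no array of a group had a probe well above background, only a bound is given. For the bound, each array of that group is set at its lowest detected signal (over all probes well above background there), or at the probe's reading if that is larger. Arrays of the other group enter at their readings. Where only some of those were well above background, as for Col9a1, Col10a1, Col22a1 and Col23a1 with tamoxifen, the bound rests in part on dim readings. On this scale Col11a1 was at least 43.7-fold higher in mock cultures (adjusted p = 6.32e-07). Its partner Col11a2 differed by 0.20 (SE 0.44) and Col2a1 of cartilage by 0.35 (SE 1.25), both without passing. Col2a1 lay widely apart within groups, at -4.09, -5.70, -4.45 and -6.78 in mock cultures and -3.53 and -7.67 in control glomeruli. Col27a1 was the lower fibrillar call (adjusted p = 0.0176), but it was below that mark on all arrays of both groups, so no size is given.

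Among FACIT collagens, Col14a1, which binds the surface of type I fibrils, read 0.76, 0.56, 0.75 and -0.28 in mock cultures, against -4.28 and -5.16 in control glomeruli. The difference was 5.17 (SE 0.43, adjusted p = 2.57e-05). Its other probe pointed the same way with a smaller difference of 1.93, so the size depends on the probe. Col16a1 read 1.89, 1.57, 1.93 and 0.93 in mock cultures, against -0.77 and -1.45 in control glomeruli (difference 2.69, SE 0.40, adjusted p = 0.000632), and another probe measured in both groups gave 2.77. Col9a1, a chain that decorates type II fibrils in cartilage, was at least 1.47-fold higher (adjusted p = 0.0153), with only the day 7 arrays of the mock cultures well above background. It passed the filter through the day 7 cultures alone, so its bound and its call are no support for a rise. Col20a1 was lower, with -4.50, -4.65, -4.35 and -4.35 in mock cultures, against -3.56 and -3.12 in control glomeruli (difference -1.13, SE 0.18, adjusted p = 0.000821). Col9a2 differed by 0.01 (SE 0.12) and did not pass, and Col22a1 was below background in both groups.

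Col7a1, the collagen of the anchoring fibrils that tie an epithelium's basement membrane to the matrix beneath, read -0.75, -0.78, -0.02 and -0.59 in mock cultures, against -4.35 and -4.02 in control glomeruli. It was 12.5-fold higher (difference 3.64, SE 0.19, adjusted p = 2.02e-06), and the spread inside each group was small beside the gap. Among the network-forming chains, Col8a1 of vessel walls read -0.66, -1.12, -0.21 and -1.10 in mock cultures, against -2.78 and -3.67 in control glomeruli (difference 2.45, SE 0.33, adjusted p = 0.000345). The partner chain Col8a2 went the other way on the probe tested (adjusted p = 0.000917), below background in mock cultures, while its other probe read higher there, so no direction is given for that gene. Col10a1, the collagen of hypertrophic cartilage, was at least 1.06-fold higher (adjusted p = 0.0126), with 1 of 4 mock arrays well above background. It passed the filter through day 4 cultures alone, so its bound and its call are no support for a rise.

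Col6a1 and Col6a2, chains of the common collagen VI microfibril, were both lower in cultures. Col6a1 read -2.98, -2.96, -3.44 and -4.29 in mock cultures, against -1.13 and -0.79 in control glomeruli (difference -2.46, SE 0.46, adjusted p = 0.00204). Col6a2 read -4.80, -4.86, -4.41 and -5.07 in mock cultures, against -3.38 and -2.53 in control glomeruli (difference -1.83, SE 0.30, adjusted p = 0.00105). The groups did not overlap for either chain, and the genes adjoin each other. Col6a4 did not pass and was well above background on 2 culture arrays in all, both at day 7.

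The multiplexins, basement membrane collagens whose cleaved ends include endostatin from Col18a1, were lower in cultures as well. Col18a1 was high in every glomerular sample. It read 1.23, 0.93, 1.24 and 0.70 in mock cultures, against 4.58 and 4.97 in control glomeruli (difference -3.75, SE 0.25, adjusted p = 7.87e-06). Its second probe gave -3.76. Col15a1 was not well above background on any culture array by any of its 3 probes and was at least 3.2-fold lower in mock cultures (adjusted p = 0.0021). Its 2 other probes pointed the same way.

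Col26a1, a collagen outside the main classes, showed the largest lower difference among the 28. It read -5.88, -5.87, -5.96 and -7.04 in mock cultures, none well above background, against -1.29 and -1.23 in control glomeruli, and was at least 21.7-fold lower in mock cultures (adjusted p = 3.34e-05). Col23a1, a transmembrane collagen whose outer part can be shed, read -6.45, -6.06, -5.54 and -6.06 in mock cultures, against -4.39 and -4.77 in control glomeruli. It was at least 2.13-fold lower (adjusted p = 0.000458), and a second probe pointed the same way. Col25a1, the other transmembrane collagen tested, differed by 0.32 (SE 0.48) and did not pass.

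**Figure D2:**
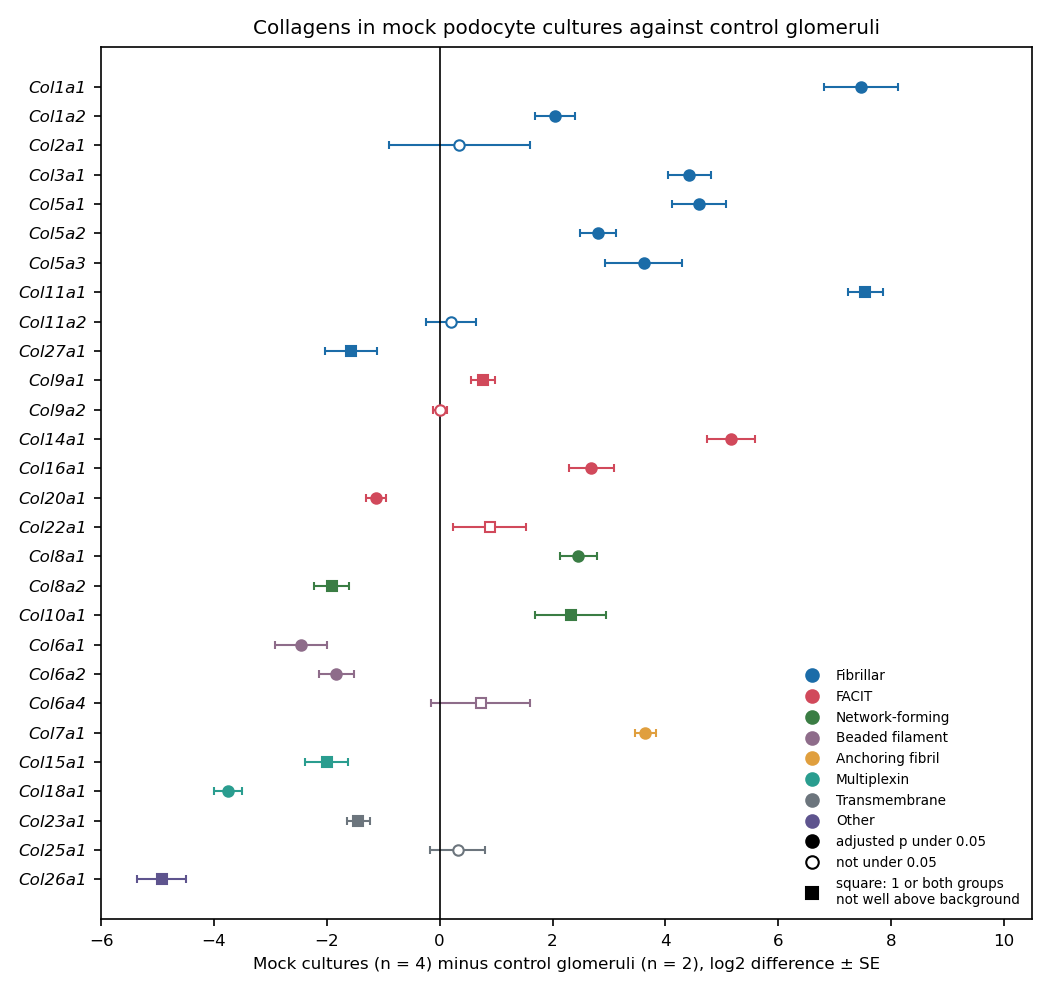
Log2 difference between mock cultures (n = 4) and control glomeruli (n = 2) for each of the 28 tested collagens (x axis, with limma's SE as bars), coloured by class, filled where the adjusted p was under 0.05; squares mark genes for which 1 or both groups had no array well above background. A square's position is a reading against background, not a measured size. Fibrillar Col1a1 (7.47) and Col11a1 (a square) lie farthest right, and Col26a1 (a square) and Col18a1 (-3.75) farthest left.

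When all 8 culture arrays were set against all 4 glomerular arrays, treated samples included, 11 collagens lay wholly above and 8 wholly below, and 9 overlapped. Over all genes 34.6% lay above and 21.9% below, against 39.3% and 28.6% of the collagens. The 11 were Col1a1, Col1a2, Col3a1, Col5a1, Col5a2, Col5a3, Col11a1, Col7a1, Col14a1, Col16a1 and Col8a1, which covers 7 fibrillar chains. The 8 were Col6a1, Col6a2, Col15a1, Col18a1, Col23a1, Col26a1, Col27a1 and Col8a2. The other probe of Col8a2 read higher in mock cultures than in control glomeruli, and Col27a1 passed the filter through treated glomeruli alone. Their places among the 8 are therefore no support for a lower level in cultures. Col9a1, Col10a1 and Col20a1, which passed between mock cultures and control glomeruli, overlapped in this wider view.

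Several marker lists moved with these differences, in a comparison where 63.7% of all genes passed, and their part in the result was not tested. Acta2, the actin of smooth muscle and myofibroblasts, read 7.83, 7.64, 7.85 and 7.58 in mock cultures, against 1.59 and 1.55 in control glomeruli (difference 6.16, SE 0.12, adjusted p = 1.77e-08). Of 15 mesangial and mural markers 3 were higher and 11 lower, and the summed level of the list, in multiples of the 75th percentile, was 472.3 to 566.2 in mock cultures and 58.8 to 108.5 in control glomeruli. That sum follows the brightest members, Acta2 among them, and so rose while most markers of the list were lower. All 12 endothelial markers were lower, with sums of 10.6 to 19.4 in mock cultures and 317.1 to 376.1 in control glomeruli, and the endothelial receptor gene Tek was not well above background on any mock array. All 12 tubule markers were lower too, with sums of 1.34 to 2.72 in mock cultures and 76.7 to 80.7 in control glomeruli. Of 6 fibroblast markers 2 were higher (Mfap5 and Fbln1) and 2 lower (Pi16 and Scara5), and the sums were 2.06 to 3.35 in mock cultures and 61.6 to 69.1 in control glomeruli. Pi16 carries nearly all of the glomerular sum, at a log2 level of 5.88 and 6.09 in control glomeruli, against -2.60, -3.33, -1.53 and -3.46 in mock cultures. Of 8 immune markers 2 were higher and 2 lower, with sums of 6.25 to 18.6 in mock cultures and 6.81 in both control glomeruli. The 13 podocyte markers summed to 140.4 to 147.5 in mock cultures and 470.6 to 633.7 in control glomeruli. In bulk RNA, fewer cells of a type and less RNA per cell cannot be told apart.

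Lists of genes that fold, trim, cross-link and bind collagen had more calls higher than lower in mock cultures. Of all genes 37.8% were called higher and 25.9% lower in this comparison. Of 20 folding and modification genes 12 were higher and 1 lower (median 0.72), and of 12 trimming and cross-linking genes 10 were higher and 0 lower (median 2.28), the other 2 having differences that did not pass. Serpinh1, the collagen chaperone of the endoplasmic reticulum, read 5.44, 5.30, 5.49 and 5.10 in mock cultures, against 3.64 and 3.32 in control glomeruli (difference 1.85, SE 0.14, adjusted p = 1.5e-05). P4ha1, a prolyl hydroxylase subunit that stabilises the helix, differed by 2.48 (SE 0.22, adjusted p = 3.63e-05), and P3h4, which assists lysine hydroxylation, by 1.47 (SE 0.14, adjusted p = 5.68e-05). Colgalt2, which adds galactose to collagen hydroxylysine, was the lower call: it read -7.61, -6.52, -7.08 and -6.89 in mock cultures, against 0.80 and 1.08 in control glomeruli, at least 99.7-fold lower by the probe used (adjusted p = 1.12e-06).

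Lox, the founding lysyl oxidase, read 3.46, 3.44, 3.07 and 3.31 in mock cultures, against -6.95 and -6.02 in control glomeruli, where its probe was not well above background. It was at least 643-fold higher (adjusted p = 4.14e-07). Loxl1 differed by 6.32 (SE 0.30, adjusted p = 1.37e-06), Loxl4 was at least 13.9-fold higher (adjusted p = 1.49e-06) and Loxl3 differed by 1.45 (SE 0.16, adjusted p = 0.000136). All 4 of these cross-linking enzymes were thus higher in cultures. Among 15 collagen-binding matrix genes 8 were higher, including Fn1 of fibronectin at 6.84 (SE 0.28, adjusted p = 6.93e-07), and 5 lower, including Thbs2, a matricellular thrombospondin, at -3.67 (SE 0.38, adjusted p = 8.05e-05). Of 11 collagen receptors 6 were higher and 2 lower, where 37.8% of all genes were higher and 25.9% lower. Itga11, the integrin chain that binds fibrillar collagen, read 3.88, 4.57, 3.67 and 4.04 in mock cultures, against -3.91 and -3.24 in control glomeruli (difference 7.62, SE 0.41, adjusted p = 2.81e-06), or 196-fold. The collagen receptor kinase Ddr1 differed by 2.21 (SE 0.16, adjusted p = 1.39e-05). For comparison, 4 type IV chains were higher, led by Col4a1 at 2.80 (SE 0.25, adjusted p = 3.81e-05), and Col4a3 of the mature glomerular basement membrane was lower at -0.87 (SE 0.18, adjusted p = 0.00314).

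Tamoxifen changed few collagens in either setting. In treated against control glomeruli 1 of 28 passed, Col20a1, where 2.64% of all genes did (1.76% higher and 0.881% lower). The FACIT collagen Col20a1 read -4.27 and -4.84 in treated glomeruli, against -3.56 and -3.12 in control glomeruli (difference -1.22, SE 0.21, adjusted p = 0.031). Both treated values were lower than both controls, and the second probe gave -1.68. The call was lost on the glomerular arrays alone (adjusted p = 0.275), with normexp background correction (-0.28, adjusted p = 0.971) and with the mean of the gene's probes (adjusted p = 0.0521), and it held in 1 of the 12 fits that left out an array, that without treated number 1 (differences of -1.51 to -0.93, adjusted p up to 0.0656).

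Of 10 fibrillar genes in treated glomeruli 8 had a difference above 0 and 2 below, Col5a3 and Col2a1, with a median of 0.23 and 0 passing by limma. Col11a1 was well above background on no glomerular array, and Col2a1, Col5a3 and Col11a2 on 1 each. Their signs, which enter these counts, are therefore mostly those of background readings. Col1a1 read -1.45 and -1.49 in treated glomeruli, against -3.18 and -3.40 in control glomeruli, a difference of 1.82 (SE 0.75, adjusted p = 0.258). The mice of each group lay close together and the groups did not overlap, while the SE pools the spread of all 6 groups, cultures included. Col1a2 read 5.64 and 5.18 in treated glomeruli, against 3.97 and 5.08 in control glomeruli (difference 0.89, SE 0.40), with every treated value above every control value. Col27a1 read -4.01 and -5.37 in treated glomeruli, against -5.88 and -6.05 in control glomeruli, where it was not well above background (at least 2.22-fold, adjusted p = 0.261). The treated glomerular arrays were the only ones in the series where it was, so Col27a1 passed the filter through that group. Its bound and its place in the counts here are therefore no support for a rise. Col3a1 differed by 0.11 (SE 0.44), Col5a1 by 0.17 (SE 0.55) and Col18a1 by 0.02 (SE 0.29). Both treated arrays lay above both controls for 7 collagens (25%) and below them for 4 (14.3%), against 20% and 27.8% of all genes. Col9a1, Col10a1, Col11a1 and Col22a1, all among the 7, were well above background on no glomerular array, so their order is one of background readings. Col27a1 was among the 7 too, which left Col1a1 and Col1a2. The median collagen difference was 0.12, against -0.05 over all genes.

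Markers of other cells moved in the treated glomeruli, in a comparison where 2.64% of all genes passed. Of 12 tubule markers 2 were higher (Slc22a6 at 1.65 and Slc12a1 at 1.48), and the list summed to 194.8 and 125.2 in treated glomeruli, against 76.7 and 80.7 in control glomeruli. All 4 red cell markers were lower, with sums of 0.65 and 6.10 in treated glomeruli, against 72.5 and 33.1 in control glomeruli. The podocyte gene Synpo was lower by limma at -1.32 (SE 0.24, adjusted p = 0.0367), and the list summed to 326.7 and 440.7 in treated glomeruli, against 470.6 and 633.7 in control glomeruli. All 15 mesangial and mural markers had a difference above 0, with a median of 0.44, and 1 passed, Acta2, at 1.102 (SE 0.14, adjusted p = 0.0162). That list summed to 99.4 and 102.4 in treated glomeruli, against 108.5 and 58.8 in control glomeruli. All 7 parietal cell markers had a difference above 0, with a median of 0.61 and 0 passing by limma (2 at an unadjusted p under 0.05), and summed to 2.33 and 2.97 in treated glomeruli, against 1.43 and 1.87 in control glomeruli. Endothelial markers summed to 268 and 263.5 in treated glomeruli, against 376.1 and 317.1 in control glomeruli. Fibroblast markers summed to 56.9 and 72.8 in treated glomeruli, against 61.6 and 69.1 in control glomeruli, and immune markers to 2.83 and 4.54 in treated glomeruli, against 6.81 in both control glomeruli. The part of these markers in the collagen values was not tested.

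In tamoxifen against mock cultures 0 of 28 collagens passed limma's threshold at day 4, where 0.21% of all genes did (0.092% higher and 0.118% lower). At day 7 again 0 passed, where 0.979% of all genes did (0.453% higher and 0.526% lower). At an unadjusted p under 0.05 there were 4 at day 4 (14.3%, against 11% of all genes) and 4 at day 7 (14.3%, against 12.1%), shares near those of all genes. With normexp background correction 17 passed at day 4, all higher, under which 4749 of the 5064 genes called were also higher. Taking both days together, which sets 4 treated arrays against 4 mock arrays, 4 of 28 passed, where 5.11% of all genes did (2.84% higher and 2.27% lower). Col7a1 and Col23a1 were higher with tamoxifen and Col18a1 was lower, and the fourth, Col8a2, passed on a probe that was below background on all culture arrays. The median collagen difference over both days was 0.25, against 0.01 over all genes, and 19 of 28 were above 0. Each day's arrays shared a slide, so these comparisons lie within slides. Same-numbered arrays of the 2 days deviated together (r = 0.43 with tamoxifen and 0.55 in mock cultures). The main fit takes all 4 arrays of an arm as independent, also where mock cultures are set against control glomeruli.

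Col7a1 of the anchoring fibrils passed with the smallest adjusted p of the 4. At day 4 it read -0.02 and 0.40 in tamoxifen cultures, against -0.75 and -0.78 in mock cultures (difference 0.96, SE 0.21, adjusted p = 0.131). The day 7 values were 0.85 and 0.82 in tamoxifen cultures, against -0.02 and -0.59 in mock cultures (difference 1.14, SE 0.21, adjusted p = 0.0585). With the culture number as a replicate block, which was added once the data had been seen, the day 7 value passed (adjusted p = 0.046), as it did without day 7 mock number 1 (1.43, adjusted p = 0.032). Every tamoxifen array was above every mock array on both days, and over both days Col7a1 rose 2.08-fold (difference 1.05, SE 0.15, adjusted p = 0.0104). That call held in all 12 fits that left out an array and under all 12 other settings. The slide block among these settings, here and for Col18a1 below, is the same fit as the main one. In glomeruli Col7a1 read -4.48 and -4.42 in treated samples, against -4.35 and -4.02 in control samples (difference -0.27, SE 0.21).

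Col18a1 went the other way. At day 4 it read -0.06 and 0.56 in tamoxifen cultures, against 1.23 and 0.93 in mock cultures (difference -0.83, SE 0.29, adjusted p = 0.331). Its day 7 values were -0.38 and -0.59 in tamoxifen cultures, against 1.24 and 0.70 in mock cultures (difference -1.46, SE 0.29, adjusted p = 0.0665). All 4 tamoxifen values were below all 4 mock values, and over both days it fell by 1.14 on the log2 scale (SE 0.20, adjusted p = 0.0207), its second probe giving -0.83. The call held under all 12 other settings and in 7 of 12 fits that left out an array, with adjusted p up to 0.0686. It was lost without day 4 mock number 1 or number 2, day 4 tamoxifen number 1, or day 7 tamoxifen number 1 or number 2, with differences of -1.22 to -0.99 there.

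Col23a1 read -4.95 and -5.33 in tamoxifen cultures at day 4, against -6.45 and -6.06 in mock cultures, and -4.92 and -5.13 in tamoxifen cultures at day 7, against -5.54 and -6.06 in mock cultures. No mock array was well above background and 3 of 4 tamoxifen arrays were, so the transmembrane collagen was at least 1.51-fold higher over both days (adjusted p = 0.0208). A second probe pointed the same way. The call was lost with normexp (adjusted p = 0.078) and in 5 of 12 fits that left out an array, those without day 4 mock number 1, day 4 tamoxifen number 1, day 7 mock number 2 or either day 7 tamoxifen array (adjusted p up to 0.0792). Col8a2 passed on the probe tested (adjusted p = 0.0486), which was not well above background on any culture array, and its other probe differed by 0.01. That call was also lost with the replicate number as a block over all arrays, so no direction is given for Col8a2.

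Other collagens showed shifts that stayed short of the threshold. Col14a1, bound to fibril surfaces, read 0.14 and -0.58 in tamoxifen cultures at day 4, against 0.76 and 0.56 in mock cultures, and -0.36 and -0.81 in tamoxifen cultures at day 7, against 0.75 and -0.28 in mock cultures. Its difference over both days was -0.85 (SE 0.35, adjusted p = 0.219), and with the replicate number as a block over all arrays it passed (adjusted p = 0.0251), but not with a block in the cultures alone (adjusted p = 0.127). Fibrillar chains lay higher for 9 of 10 over both days, with 0 passing by limma and 1, Col5a2, at an unadjusted p under 0.05 (20.6% of all genes were). Among the 9, Col27a1 was well above background on no culture array and Col2a1 on 4. Col5a2 differed by 0.61 (SE 0.26), Col3a1 by 0.54 (SE 0.31), Col1a1 by 0.67 (SE 0.53) and Col1a2 by 0.26 (SE 0.29), and the ranges of the 4 tamoxifen and 4 mock arrays overlapped for each. Within same-numbered pairs, a view added once the data had been seen, the tamoxifen array read higher in all 4 pairs for 11 of 28 collagens (39.3%, against 27.5% of all genes) and lower in all 4 for 2 (7.14%, against 24.9%). Of the fibrillar chains, Col1a1, Col2a1, Col5a1, Col5a2 and Col5a3 were among the 11. Col1a1 differed by 0.11 and 0.52 at day 4 and by 0.08 and 1.95 at day 7, and Col5a2 by 0.25 and 1.31 at day 4 and by 0.01 and 0.89 at day 7. The lower pair was Col14a1 and Col18a1. Col11a2 was the fibrillar chain on the lower side, at -0.33 (SE 0.36). Col22a1, a FACIT collagen of tissue junctions, was well above background on 3 of 4 tamoxifen arrays and on no mock array, which gives a bound of at least 1.05-fold (adjusted p = 0.187). Those 3 were the only such arrays in the series, so Col22a1 passed the filter through that group. Its bound and its place in the counts here are no support for a rise. Both tamoxifen arrays lay above both mock arrays for 12 of 28 collagens at day 4 (42.9%, against 29% of all genes) and for 6 at day 7 (21.4%, against 22.1%). Col8a2 was among the 11 higher in all 4 pairs, the 12 and the 6, and Col27a1 was among the 12. For both genes the probe used was well above background on no culture array.

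**Figure D3:**
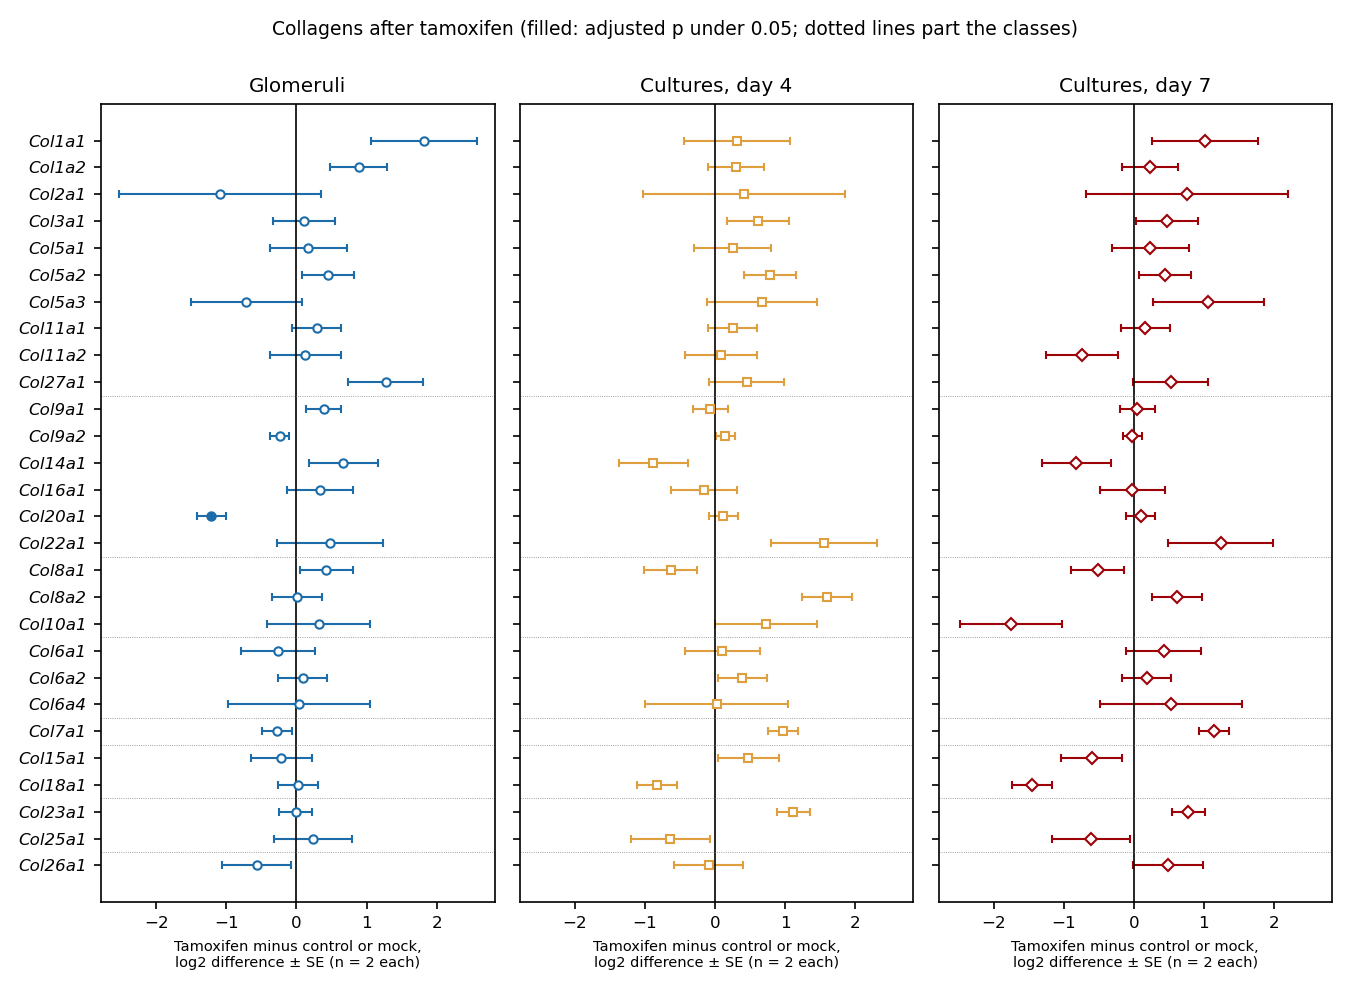
Log2 difference between tamoxifen and control or mock samples (x axis, n = 2 each, with limma's SE as bars) for the 28 tested collagens in glomeruli, day 4 cultures and day 7 cultures, ordered by class between dotted lines. Col20a1 in glomeruli, at -1.22, is the single filled point, and Col7a1 (0.96 and 1.14) and Col18a1 (-0.83 and -1.46) lie on opposite sides of 0 on both culture days.

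Differences between the responses themselves were tested in the same fit. Between the day 7 and the day 4 response 0 of 28 passed, as 0% of all genes did. Between the response of glomeruli and that of cultures 0 of 28 passed, where 1.09% of all genes did. Nearest were Col20a1 (-1.32, SE 0.25, adjusted p = 0.0556) and Col7a1 (-1.32, SE 0.26, adjusted p = 0.06), and Col18a1 stood at 1.17 (SE 0.35, adjusted p = 0.149). Col7a1 passed without day 7 mock number 1 (-1.47, adjusted p = 0.0397), and Col20a1 passed among genes well above background on all 12 arrays (adjusted p = 0.0475). At an unadjusted p under 0.05 there was 1 collagen between days (3.57%, against 0.894% of all genes), Col10a1, which was below background on all day 7 arrays, and there were 6 between glomeruli and cultures (21.4%, against 16.9% of all genes). Col10a1 passed the filter through day 4 cultures alone, so its place here is no support for a difference between days.

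Among genes that fold, process, bind or sense collagen, P3h2 and Itga11 fell most with tamoxifen in cultures. Over both days 5.11% of all genes passed, 2.84% higher and 2.27% lower. Against that share, single calls in such short lists say little about a list. P3h2, a prolyl 3-hydroxylase known for acting on type IV collagen, read -1.74 and -1.16 in tamoxifen cultures at day 4, against -0.02 and 0.87 in mock cultures, and -2.33 and -1.82 in tamoxifen cultures at day 7, against -0.01 and 0.66 in mock cultures. It fell by 2.14 on the log2 scale over both days (SE 0.28, adjusted p = 0.00753) and was the single call among 20 folding genes. Itga11, the fibrillar collagen receptor chain, read 1.51 and 2.31 in tamoxifen cultures at day 4, against 3.88 and 4.57 in mock cultures, and 0.55 and 0.88 in tamoxifen cultures at day 7, against 3.67 and 4.04 in mock cultures. It fell by 2.73 over both days (SE 0.34, adjusted p = 0.00624), the single call among 11 receptors, and no tamoxifen value reached a mock value. P3h2 and Itga11 also passed at day 7 alone (adjusted p = 0.041 and 0.0317).

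Of 12 trimming and cross-linking genes 1 rose and 1 fell, where 5.11% of all genes passed. Bmp1, the protease that removes the carboxy ends of fibrillar procollagens, read 4.76 and 4.91 in tamoxifen cultures at day 4, against 3.77 and 3.44 in mock cultures, and 5.45 and 4.64 in tamoxifen cultures at day 7, against 4.21 and 3.22 in mock cultures (difference 1.28, SE 0.25, adjusted p = 0.0299). Loxl3 fell by 0.73 (SE 0.13, adjusted p = 0.0227). Of 15 collagen-binding matrix genes 0 rose and 1 fell, Ogn, a small leucine-rich proteoglycan, which fell by 1.93 (SE 0.38, adjusted p = 0.0305). For comparison, of the type IV chains 1 fell, Col4a3 (by 0.92, SE 0.14, adjusted p = 0.0145). In glomeruli 0 members of these 5 lists passed by limma, with 2 each of the folding, trimming and binding lists at an unadjusted p under 0.05, as 18.3% of all genes were. The widest differences there were those of Postn, which encodes periostin, at 2.11 (SE 0.81) and of the lysyl oxidase Loxl2 at -2.08 (SE 1.38). Loxl2 read -1.54 and 3.81 in treated glomeruli, against 2.88 and 3.55 in control glomeruli, so treated number 1 alone lay apart.

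**Figure D4:**
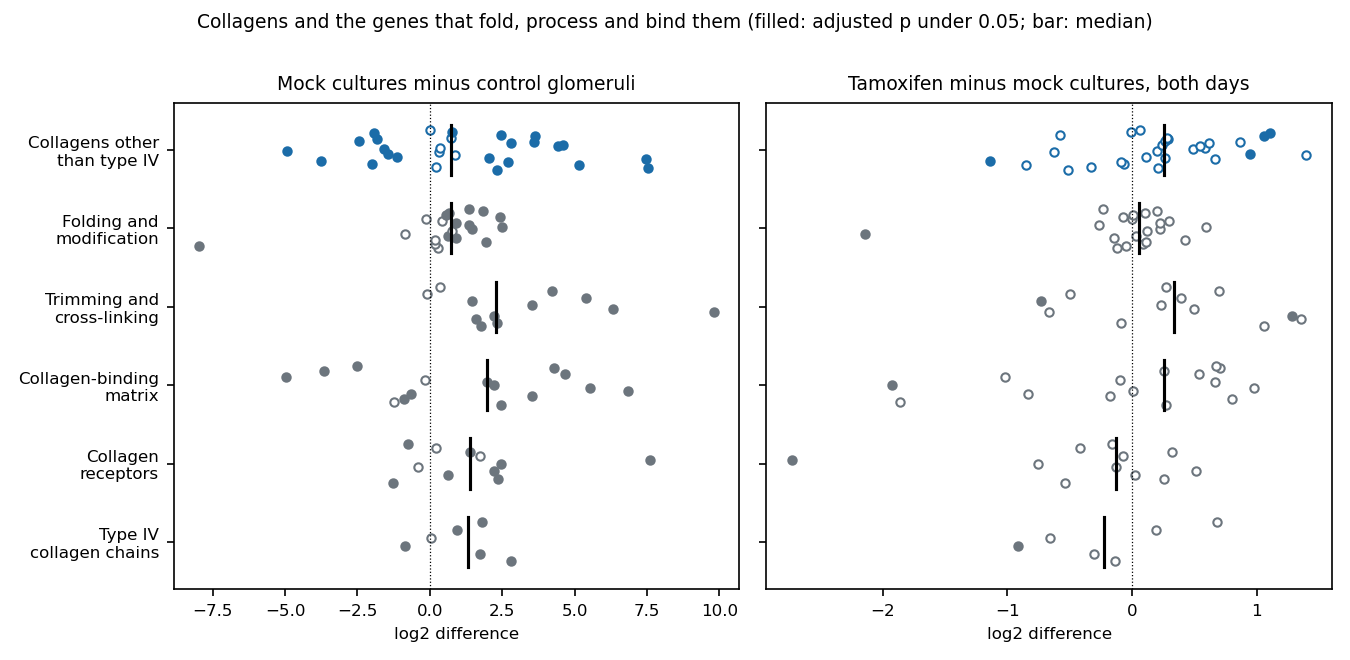
Log2 differences (x axis) of the 28 tested collagens and of 5 lists of genes that fold, process, bind or sense collagen or encode type IV chains, for mock cultures against control glomeruli (left) and tamoxifen against mock cultures over both days (right); each point is a gene, filled where the adjusted p was under 0.05, and bars are medians. On the left the cross-linking list has its median at 2.28, with Lox farthest right (a reading against a control group below background, for which at least 643-fold is the bound), and on the right Itga11 at -2.73 and P3h2 at -2.14 lie apart from their lists.

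Marker lists in the same cultures gave these values, where 5.11% of all genes passed over both days. Fibroblast markers summed to 4.44 to 5.39 in tamoxifen cultures, against 2.06 to 3.35 in mock cultures, with Mfap5 at 1.26 (SE 0.13, adjusted p = 0.00329) and Scara5 at 1.18 (SE 0.22, adjusted p = 0.0262) as the 2 calls of 6. Mesangial and mural markers summed to 617 to 686.5 in tamoxifen cultures, against 472.3 to 566.2 in mock cultures, with Myh11 higher at 1.06 (SE 0.23, adjusted p = 0.0414) and Rgs5, a pericyte gene, lower at -2.35 (SE 0.22, adjusted p = 0.00256). Of these 15 markers 8 had a difference above 0 and 7 below, with a median of 0.10, while the sums follow the brightest members. Podocyte markers summed to 142.8 to 158.6 in tamoxifen cultures and 140.4 to 147.5 in mock cultures, with 2 of 13 lower (Clic5 at -1.38 and Ptpro at -1.40). Immune markers had sums of 3.78 to 11.8 in tamoxifen cultures and 6.25 to 18.6 in mock cultures. The part of these markers in the collagen values was not tested.

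Days in culture were compared in the mock arrays. Between mock cultures at day 7 and at day 4, 0 of 28 passed by limma, where 0.0329% of all genes did (0.0263% higher and 0.00657% lower). Col9a1 read -5.12 and -4.95 at day 7, where it was well above background, and -5.69 and -6.04 at day 4, where it was not, which gives a bound of at least 1.54-fold (adjusted p = 0.402). The day 7 culture arrays were the only ones in the series where it was, so Col9a1 passed the filter through them. Its bound and its place in the share below are no support for a rise. Its partner chain in type IX collagen, Col9a2, differed by 0.48 (SE 0.13, adjusted p = 0.338), with -4.50 and -4.49 at day 7 and -5.12 and -4.83 at day 4. These 2 were the collagens at an unadjusted p under 0.05 (7.14%, against 6.49% of all genes). Each day was a slide of its own, so day and slide cannot be told apart.

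Differences between the 2 culture numbers were also examined. Number 1 read higher than number 2 in all 4 culture groups for 7 of 28 collagens (25%, against 16.2% of all genes), and number 2 read higher in all 4 for 0 (against 20.9% of all genes). The 7 were Col1a1, Col2a1, Col11a1, Col5a1, Col14a1, Col16a1 and Col6a2. Col1a1 was 1.29 higher on average in number 1, by 0.80 in tamoxifen and 1.21 in mock cultures at day 4 and by 0.63 in tamoxifen and 2.50 in mock cultures at day 7. The labels do not say what a culture number stands for.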

How the data were processed

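Each sample was hybridised in Cy3 to a one-colour array read with Feature Extraction 11.5.1.1, and background-subtracted signal intensity per spot was deposited by the authors, per the file headers. The log2 value table that the authors also deposited equals log2 of that signal minus the array's 75th percentile plus a constant of 0.094 to 0.12 per array, with column medians of -4.14 to -3.81. It was used as an alternative. The reason for that constant is not given in the sources used here.

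Of 43020 spots, control and outlier spots were left out and spots of a probe were averaged, and 26581 of 39429 probes had 1 gene symbol by accession, 0 had several and 12848 had none. Every column of values belonged to a sample (0 did not). Log2 signal minus the array's 75th percentile was fitted in R 4.3.3 with limma 3.58.1 (6 group means over 12 arrays, 6 residual and 1.87 prior degrees of freedom), after keeping probes well above background on at least 2 arrays and the brightest probe per gene. SE is limma's, p-values were adjusted by Benjamini-Hochberg over 15215 genes, and the threshold was 0.05. The fit was tested on simulated data. Alternatives changed background correction, scaling, filter, probe rule, variance model, samples and block. Normexp used the median signal, since the mean was not among the columns used here.

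All collagens could be named. Of other lists up to 4 called members by smallest p, or up to 2 by size where none was called, were named per comparison. Members and lists were chosen with earlier results of these data known. Same-numbered cultures deviated together (r = 0.395 to 0.551 over 6 pairs of groups), so their numbers were taken as pairs from the data, and the glomerular groups, at 0.21, as sharing only a number. Promoters were RefSeq's for GRCm38.p6, and array coordinates were not used.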

Additional observations from a re-analysis of the deposited data

How the results depend on the processing

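Of the values of single collagens under other settings, 5128 stayed on their side of the threshold, 27 gained a call and 50 lost one. Another 3 changed sign with a call, all at day 4 with normexp: Col25a1 (1.28), Col26a1 (1.22) and Col9a1 (1.28). Changes of sign between values that both missed the threshold were not counted apart and lie among the 5128. Normexp called 0 collagens in glomeruli, 17 at day 4 and 2 over both culture days, and 15 between mock cultures and control glomeruli; it moved the median of all genes by 0.12 over both days and 0.17 at day 4, so its day 4 directions are relative to that shift. Scaling to the median called 1 at day 7 (Col7a1), moved the median between cultures and glomeruli by 0.24 and split all calls there 7190 higher and 3026 lower, against 5754 and 3942, with collagens at 13 and 9. Among genes well above background on all 12 arrays, which leaves 14 collagens, 1 passed at day 7, 2 over both days, 1 in the response of glomeruli against cultures and 13 between cultures and glomeruli. The mean of a gene's probes called 1 at day 7 and 0 in glomeruli, the trended robust fit 2 at day 7, and the glomerular arrays alone 0. Leaving out each array in turn gave 0 to 1 in glomeruli, 0 to 1 at day 7, 1 to 4 over both days and 0 to 1 in the response of glomeruli against cultures. With the replicate number as a block over all arrays the counts were 1 in glomeruli, 0 at day 4, 0 at day 7, 4 over both days (2 higher and 2 lower, Col14a1 gained and Col8a2 lost) and 22 between cultures and glomeruli. The block in the cultures alone, added after the data were seen, called 1 at day 7 (Col7a1). Over all genes, the counts of 32 at day 4 and 149 at day 7 became 106 and 250 with the first block and 269 and 500 with the second, 777 over both days became 1477 with the second, and 402 in glomeruli became 5 with normexp. Slide as a block could change no value, since each slide held whole groups and the fit is then the same. The 2 samples per group limit the precision, and dim probes such as those of Col10a1, Col22a1 and Col23a1 lie near background.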

Other observations

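Genome neighbours among the collagens did not always share a direction or a state of detection. Col3a1 and Col5a2, adjoining genes, were both higher in mock cultures than in control glomeruli (4.42 and 2.81), and the adjoining Col6a1 and Col6a2 were both lower (-2.46 and -1.83). Col9a1 was well above background on 4 culture arrays, while its neighbour Col19a1 was so on no array. Of the adjoining Col6a4, Col6a5 and Col6a6, Col6a4 was well above background on 2 culture arrays, Col6a6 on 1 culture array and Col6a5 on 1 glomerular array. Col10a1 read -3.61 and -6.37 in tamoxifen cultures at day 4, against -5.88 and -5.54 in mock cultures, and -8.23 and -7.55 in tamoxifen cultures at day 7, against -6.16 and -6.12 in mock cultures, with 2 of these 8 arrays, both at day 4, well above background, so most of these readings lie at background.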
